A study of Homo sapiens with 12 samples.

Results

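The genes described here carry glucose into the cell, break it down to pyruvate and move lactate. They include subunits and kinases of the enzyme complex that feeds pyruvate to the citric acid cycle. They are 40 of the 58302 genes in the deposited table. They were chosen by symbol, with earlier results of these data known. The list holds 7 glucose transporters (SLC2A1, SLC2A3, SLC2A4, SLC2A6, SLC2A8, SLC2A10 and SLC2A12), 4 hexokinases (HK1, HK2, HK3 and HKDC1), 7 genes of upper glycolysis, 4 PFKFB enzymes, 7 genes of lower glycolysis, 5 genes of lactate (LDHA, LDHB, SLC16A1, SLC16A3 and SLC16A7) and 6 genes of pyruvate dehydrogenase and its kinases. All 40 were in the table.

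RNA sequencing was done on 3 established prostate cell lines with 4 libraries each. BPH-1 is labelled a benign prostate cell line, and DU145 and PC3 are labelled prostate cancer (PCa) cell lines. All were wild type, none was labelled as treated, and all were grown in the same medium with 10% fetal bovine serum. The study also measured the glycolytic function of PCa cells, which is the context in which the transcripts of this pathway were compared. Each group is 1 cell line, so a difference between groups is a difference between these lines. BPH-1 is an immortalised epithelial line, and DU145 and PC3 were derived from metastases. The labels do not say that the 4 libraries of a line came from separate cultures, so p-values measure only the spread between these libraries, which may be technical.

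Glycolysis turns glucose into pyruvate in the cytosol. Hexokinases trap glucose in the cell, phosphofructokinase commits it to breakdown, and PFKFB enzymes set the level of fructose 2,6-bisphosphate, the main activator of phosphofructokinase. Lactate dehydrogenase interconverts pyruvate and lactate, monocarboxylate transporters carry lactate across the membrane, and pyruvate dehydrogenase kinases (PDK) switch off the enzyme complex that feeds pyruvate to the citric acid cycle. Benign prostate epithelium is known for secreting citrate, and prostate tumours are known for changing how they use glucose as they advance.

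Values are FPKM, the reads of a gene per kilobase of its length and scaled to the reads of its library. Libraries held between 12950757 and 16309825 reads (median 15341126), and BPH-1 libraries summed to a lower total FPKM (246960 ± 2986, SD, n = 4) than DU145 (293757 ± 5858) or PC3 (298496 ± 5975). Reads of mitochondrial genes took 5.44% to 5.96% of BPH-1 libraries, 6.62% to 10.4% of DU145 libraries and 7.58% to 9.72% of PC3 libraries, and their part in the differences was not tested. The epithelial keratins KRT8 and KRT18 were expressed in all 3 lines. The basal markers KRT5, KRT14 and TP63 had mean FPKM of 147, 203 and 13.0 in BPH-1 and were below 1 in DU145 and PC3. EPCAM and CDH1 were at 0.376 and 0.180 in DU145, and KLK3 was at 0 in all 12 libraries. The luminal markers KLK3 and KLK2 were therefore at or near 0 in all lines. In any library the fibroblast markers summed to at most 3.94 FPKM, the endothelial markers to at most 2.28 and the immune markers to at most 13.7.

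PC3 stood out for hexokinase, PGK1, PFKFB4 and the lactate exporter SLC16A3. DU145 stood out for the glucose transporter SLC2A1, for PFKP and for the hexokinase-like gene HKDC1, with low LDHA, SLC16A1 and PDHA1. Genes were tested with limma on log2(FPKM + 1) over the whole table, and a gene was called at a Benjamini-Hochberg adjusted p under 0.05. Fold changes on this scale understate those of genes with low FPKM. In PC3 against BPH-1, 37 of the 40 genes passed the filter on reads. Of these, 18 rose, against 27.0% of all 16354 genes tested, and 5 fell, against 40.7%. The calls in either direction, 23 of 37, stood beside 67.7% of all genes tested, so being called was in itself no more frequent than the background. In DU145 against BPH-1, 38 passed, 13 rose (30.2% of 17041 genes tested) and 13 fell (32.4%), where 62.6% of all genes were called in either direction. In PC3 against DU145, 38 passed, 16 rose (19.9% of 16284 genes tested) and 7 fell (28.4%), where 48.3% of all genes were called in either direction. With an absolute log2 fold change over 1 also required, 12 genes of the pathway were called in PC3 against BPH-1 (27.1% of all genes), 12 in DU145 against BPH-1 (28.7%) and 13 in PC3 against DU145 (19.5%). The median log2 fold change of the tested genes of the pathway was 0.30 in PC3 against BPH-1 (all genes -0.13), 0.08 in DU145 against BPH-1 (all genes -0.03) and 0.32 in PC3 against DU145 (all genes -0.06).

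The 3 comparisons share libraries, since the first comparison shares BPH-1 with one of the others and PC3 with the last, so they are given side by side and not counted as separate evidence. No overlap between the 4 libraries of one line and the 4 of the other was seen for 22 of the 37 genes in PC3 against BPH-1, where 64.5% of all genes tested had none. In DU145 against BPH-1 it was 25 of 38 (all genes 59.4%), and in PC3 against DU145 it was 24 of 38 (all genes 46.6%). PFKFB1 passed the filter in no comparison. SLC2A4 and HK3 were not tested in PC3 against BPH-1, HK3 was not tested in PC3 against DU145, and PDK4 was not tested in DU145 against BPH-1. Summed over the 40 genes, FPKM was 1633 ± 118 in BPH-1, 1750 ± 391 in DU145 and 2152 ± 396 in PC3 (SD, n = 4). As a share of all FPKM in the library this was 0.617% to 0.718% in BPH-1, 0.452% to 0.756% in DU145 and 0.605% to 0.904% in PC3, and the 3 ranges overlapped.

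**Figure D1:**
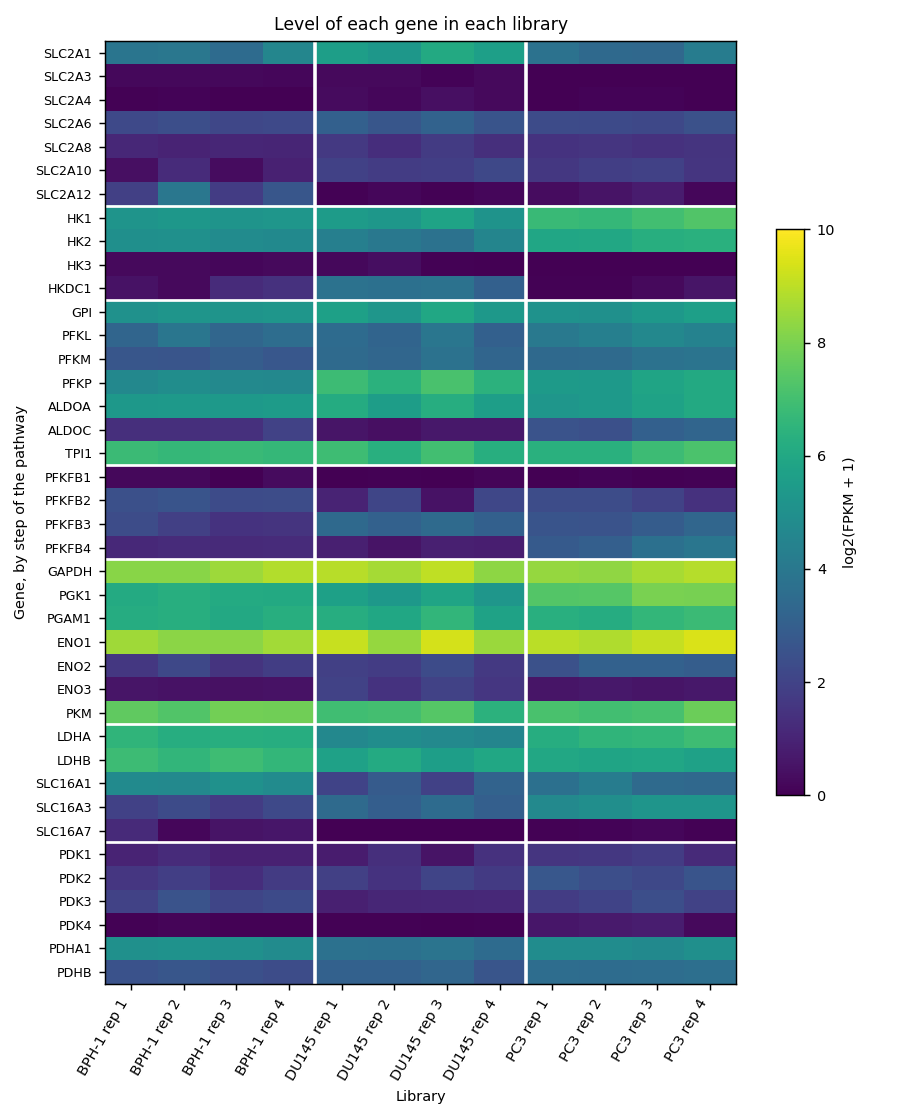
Colour gives log2(FPKM + 1) of the 40 genes (rows, by step of the pathway, white lines between steps) in the 12 libraries (columns, white lines between cell lines). ENO1 and GAPDH are the brightest rows in every line, and SLC2A3, SLC2A4, HK3 and PFKFB1 are dark throughout.

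**Figure D2:**
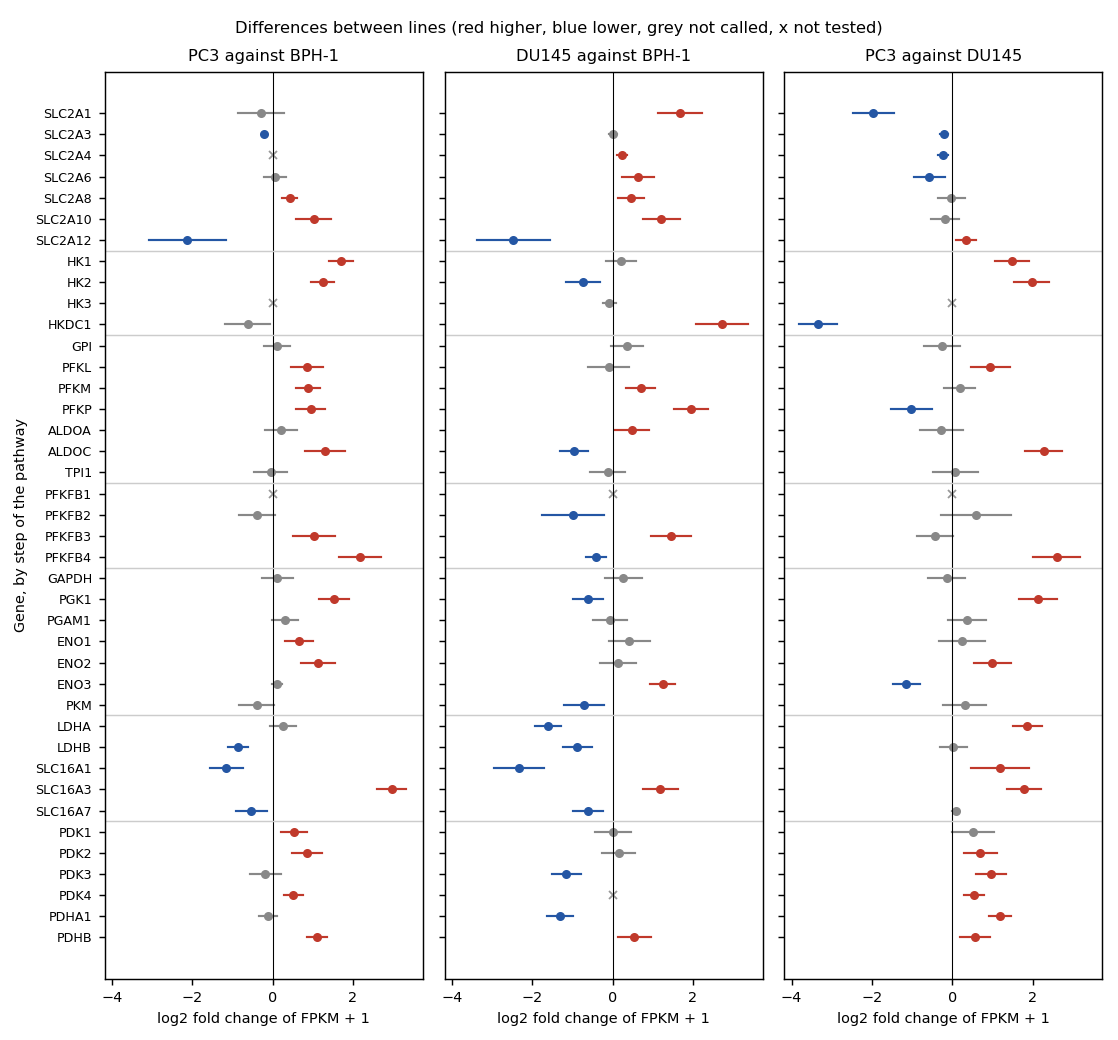
Points are log2 fold changes of FPKM + 1 with 95% confidence intervals from limma (x axis) for each gene (y axis) in the 3 comparisons. SLC16A3 has the highest value in PC3 against BPH-1 (2.96) and HKDC1 in DU145 against BPH-1 (2.73), and HKDC1 has the lowest in PC3 against DU145 (-3.35).

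HK2, ALDOC, PFKFB4 and PGK1 were the genes of the 40 that were called higher in PC3 and lower in DU145, each against BPH-1. Their promoters are shown because the glycolytic genes are known targets of hypoxia-inducible factors and of MYC, which bind the letters ACGTG or GCGTG and, for MYC, CACGTG. The sequences are RefSeq, GRCh38.p14, the 250 bases before the start of the gene in RefSeq, 5′ to 3′ on the strand of the gene. For ALDOC, PFKFB4 and PGK1 these windows lie inside the longer GENCODE spans given with their values, and for HK2 the window crosses the start of that span. Capitals mark ACGTG or GCGTG on either strand (CACGT and CACGC on the strand shown). HK2 is at chr2:74833877-74834126 (plus strand), ALDOC at chr17:28576896-28577145 (minus), PFKFB4 at chr3:48556804-48557053 (minus) and PGK1 at chrX:78103998-78104247 (plus).
HK2: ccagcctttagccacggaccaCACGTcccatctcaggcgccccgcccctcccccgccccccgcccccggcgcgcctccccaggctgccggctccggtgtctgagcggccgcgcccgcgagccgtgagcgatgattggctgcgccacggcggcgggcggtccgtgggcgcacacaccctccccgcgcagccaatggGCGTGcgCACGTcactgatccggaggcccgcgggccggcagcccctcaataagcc
ALDOC: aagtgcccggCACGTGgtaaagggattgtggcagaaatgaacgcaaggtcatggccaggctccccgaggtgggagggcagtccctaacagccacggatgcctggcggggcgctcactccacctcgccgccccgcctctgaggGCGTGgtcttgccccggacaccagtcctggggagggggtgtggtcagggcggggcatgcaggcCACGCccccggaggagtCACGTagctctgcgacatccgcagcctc
PFKFB4: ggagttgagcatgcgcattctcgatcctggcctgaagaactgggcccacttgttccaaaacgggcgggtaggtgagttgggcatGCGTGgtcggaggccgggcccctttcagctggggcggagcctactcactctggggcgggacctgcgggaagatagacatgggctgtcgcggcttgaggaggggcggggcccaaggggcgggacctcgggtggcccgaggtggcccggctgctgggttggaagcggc
PGK1: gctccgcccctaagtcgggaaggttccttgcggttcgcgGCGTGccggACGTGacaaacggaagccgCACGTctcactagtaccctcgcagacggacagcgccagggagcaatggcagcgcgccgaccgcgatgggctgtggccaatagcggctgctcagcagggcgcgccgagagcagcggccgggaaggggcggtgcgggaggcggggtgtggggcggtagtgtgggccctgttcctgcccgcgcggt
Over windows of 300 bases (250 before to 50 after the start), 36 of the 40 genes matched an entry by symbol. ACGTG or GCGTG stood in 22 of these 36 (61.1%) and in all 4 of the genes above, against 48.4% of the 27305 human promoters of that length. These promoters were not matched for GC content. Of the 11 genes called higher in PC3 than in both other lines, 7 had a match (63.6%), beside 15 of the 25 other genes with an entry (60%). ACGTG alone was in 11 of 36 (21.6% of all promoters), GCGTG in 17 (36.3%) and CACGTG, which also holds ACGTG, in 4 (7.43%). The promoter of LDHA, which fell in DU145 and was not called in PC3 against BPH-1, held more ACGTG matches (5) than any of the 4 printed. A match of letters is a description of the window and not a site of binding.

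Glucose enters through the SLC2A (GLUT) family. SLC2A1 encodes GLUT1, the transporter of basal glucose uptake in most cells, and spans 42925375 to 42959173 of chromosome 1 (GRCh38, minus strand). It was at 13.6, 14.6, 10.2 and 22.8 FPKM in BPH-1 replicates 1 to 4, at 47.9, 37.7, 65.9 and 49.4 in DU145 and at 12.6, 9.64, 9.31 and 17.4 in PC3. All DU145 libraries lay above all others, and BPH-1 and PC3 overlapped. SLC2A1 rose 3.28-fold in DU145 against BPH-1 (log2 fold change 1.68, standard error 0.25, limma adjusted p = 0.000256) and was 4.11-fold lower in PC3 than in DU145 (-1.97, standard error 0.23, adjusted p = 0.000115). Between PC3 and BPH-1 the log2 difference was -0.29 with a 95% interval of -0.86 to 0.28 (adjusted p = 0.334).

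SLC2A12 (GLUT12) moved the other way. Its FPKM was 2.71, 14.5, 2.41 and 5.36 in BPH-1, 0.0276, 0.137, 0.029 and 0.117 in DU145, and 0.242, 0.441, 0.678 and 0.138 in PC3. BPH-1 lay above both PCa lines in every library, although its own libraries were spread widely and replicate 2 was the highest. Without that replicate the BPH-1 mean dropped from 6.24 to 3.5 FPKM. SLC2A12 fell in DU145 (log2 fold change -2.46, standard error 0.41, adjusted p = 0.000512) and in PC3 (-2.13, standard error 0.42, adjusted p = 0.00156). The small difference between the PCa lines (0.34, adjusted p = 0.0328) was lost without DU145 replicate 1, 3 or 4 or PC3 replicate 2 or 3 (adjusted p between 0.0534 and 0.0831). SLC2A12 shares 1736 exon bases with TBPL1 on the other strand, which had 316, 87 and 84.7 mean reads in BPH-1, DU145 and PC3. SLC2A12 itself had 2 to 10 reads in DU145 libraries, so part of its signal there cannot be told apart from that of its neighbour.

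SLC2A10 (GLUT10) was at 0.344, 1.32, 0.247 and 0.902 FPKM in BPH-1, at 2.82, 2.47, 2.62 and 3.46 in DU145 and at 2.1, 2.59, 2.78 and 1.95 in PC3. Both PCa lines lay above BPH-1 in every library and overlapped each other. The log2 fold change was 1.21 (standard error 0.21, adjusted p = 0.000621) in DU145 and 1.02 (standard error 0.20, adjusted p = 0.00138) in PC3.

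The other 4 transporters were low or changed little. SLC2A3 (GLUT3), a high-affinity transporter, had 30 to 33 reads in BPH-1 libraries, 16 to 44 in DU145 and 0 in every PC3 library. Against a floor of 3 reads per library, it was at least 9.08-fold lower in PC3 than in BPH-1 and at least 9.83-fold lower than in DU145 (adjusted p = 0.000158 and 0.0026). Its near-identical copy SLC2A14 had at most 1 read in any library, and how reads that fit both were counted is not stated. SLC2A4 (GLUT4), the insulin-responsive transporter, was higher in DU145 (0.143 to 0.328 FPKM) than in BPH-1 (0 to 0.0627, adjusted p = 0.00297) and PC3 (0 to 0.0798, adjusted p = 0.0069), with no more than 37 reads in any library. SLC2A6 (3.73, 6.41 and 3.94 mean FPKM in BPH-1, DU145 and PC3) rose in DU145 (log2 fold change 0.63, adjusted p = 0.00978) and was lower in PC3 than in DU145 (-0.57, adjusted p = 0.0218). The latter call was lost without DU145 replicate 1 (adjusted p = 0.0657) or without PC3 replicate 1, 2 or 3 (0.051 to 0.0636). SLC2A8 (1.09, 1.90 and 1.8 mean FPKM) rose in DU145 (0.46) and in PC3 (0.42, adjusted p = 0.0174 and 0.00166). With the trend of each library with gene GC content divided out, SLC2A6 and SLC2A8 in DU145 came to 0.10 and 0.08 and SLC2A8 in PC3 to 0.12, with adjusted p of 0.447, 0.467 and 0.318. SLC2A6 in PC3 against BPH-1 went from 0.06 (adjusted p = 0.658) to -0.39 (adjusted p = 0.00941) under that correction.

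Within a library, shares of the summed FPKM of a family do not depend on how libraries are scaled. SLC2A1 made up 78.7% to 83.4% of the FPKM of the 7 transporters in DU145, 40.7% to 67.4% in BPH-1 and 51.7% to 67.0% in PC3. DU145 libraries lay above all others, and BPH-1 and PC3 overlapped.

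Hexokinases carry out the step that keeps glucose in the cell. HK1, the housekeeping form (chromosome 10, 69269984 to 69401882, plus strand), was at 34.7, 38.3, 35.3 and 36.9 FPKM in BPH-1, at 43.9, 38.1, 54.6 and 34.4 in DU145 and at 109, 101, 125 and 153 in PC3. Every PC3 library was above every other library, and BPH-1 and DU145 overlapped. HK1 rose 3.36-fold in PC3 against BPH-1 (log2 fold change 1.70, standard error 0.13, limma adjusted p = 4.46e-06) and 2.85-fold against DU145 (1.49, standard error 0.19, adjusted p = 0.000173). The difference between DU145 and BPH-1 was 0.21 (95% interval -0.16 to 0.58, adjusted p = 0.291).

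HK2, the inducible form that binds the mitochondrial outer membrane in many tumours, is on chromosome 2 from 74833981 to 74893359 (plus strand). It was at 30.7, 31.6, 27.3 and 25.5 FPKM in BPH-1, at 18.8, 15.1, 12.6 and 22.5 in DU145 and at 59.1, 63.7, 75.7 and 80.3 in PC3. The 3 lines did not overlap, with PC3 highest and DU145 lowest. HK2 rose in PC3 against BPH-1 (log2 fold change 1.24, standard error 0.13, adjusted p = 2.35e-05) and fell in DU145 (-0.73, standard error 0.19, adjusted p = 0.0074). PC3 was above DU145 by 1.97 on the log2 scale (standard error 0.19, adjusted p = 3.71e-05). The call in DU145 was lost with upper-quartile scaling (-0.45, adjusted p = 0.0626).

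HKDC1, a hexokinase domain gene next to HK1 on chromosome 10 (69220303 to 69267559, plus strand), was a DU145 transcript. It was at 0.398, 0.201, 1.34 and 1.72 FPKM in BPH-1, at 12.7, 11.8, 12.8 and 7.45 in DU145 and at 0.0473, 0.0298, 0.192 and 0.473 in PC3. All DU145 libraries were above all others. HKDC1 rose 12.2-fold in DU145 against BPH-1 (log2 fold change 2.73, standard error 0.29, adjusted p = 2.99e-05) and was 60.3-fold lower in PC3 than in DU145 (-3.35, standard error 0.21, adjusted p = 2.83e-06). PC3 libraries held only 2 to 30 reads of it, and without PC3 replicate 4 the PC3 mean dropped from 0.186 to 0.0896 FPKM, so the size of that fold rests on few reads. PC3 against BPH-1 gave -0.62 and an adjusted p of 0.0505, and the call was made without BPH-1 replicate 1 (0.0364), BPH-1 replicate 2 (0.0123) or PC3 replicate 4 (0.0409) and with the GC correction (-0.69, adjusted p = 0.0372). In bulk libraries, fewer cells that express a gene and less of its RNA per cell cannot be told apart. HK3, the leukocyte form, had at most 21 reads in any library and 1 read in all PC3 libraries together. It was not called in DU145 against BPH-1 (-0.09, adjusted p = 0.313), but it was without DU145 replicate 2 (-0.15, adjusted p = 0.0346).

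The hexokinase family summed to 66.2 ± 2.88 FPKM in BPH-1, 71.3 ± 7.69 in DU145 and 192 ± 32.4 in PC3 (SD, n = 4). HK1 was the larger part in every library. HK2 made up 39.7% to 46.6% of the family in BPH-1, 15.7% to 35.0% in DU145 and 34.3% to 38.7% in PC3. HKDC1 made up 11.6% to 18.0% in DU145, at most 2.67% in BPH-1 and at most 0.202% in PC3.

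In upper glycolysis, all 3 phosphofructokinase genes rose in PC3 and PFKM and PFKP rose in DU145. The platelet form PFKP lies on chromosome 10 from 3066333 to 3137712 (plus strand). PFKP was at 24.6, 28.6, 25.4 and 24.7 FPKM in BPH-1, at 116, 83.4, 139 and 84.6 in DU145 and at 42.4, 40.9, 55.9 and 66.7 in PC3. No library of one line overlapped another line, with DU145 highest. The log2 fold change against BPH-1 was 1.96 in DU145 (standard error 0.19, adjusted p = 1.57e-05) and 0.94 in PC3 (standard error 0.16, adjusted p = 0.000566), and PC3 was below DU145 by -1.02 (standard error 0.22, adjusted p = 0.00441). The muscle form PFKM (5.73, 9.98 and 11.4 mean FPKM in BPH-1, DU145 and PC3) rose in DU145 (0.70, adjusted p = 0.00438) and PC3 (0.88, adjusted p = 0.000264), and shares 628 exon bases with SENP1 on the other strand. The liver form PFKL (10.6, 10.0 and 19.9 mean FPKM) rose in PC3 against BPH-1 (0.85, adjusted p = 0.00207) and against DU145 (0.95, adjusted p = 0.00514). With the GC correction the first of these values for PFKL dropped to 0.32 (adjusted p = 0.0762), and DU145 against BPH-1 went from -0.10 (adjusted p = 0.727) to a call as lower (-0.68, adjusted p = 0.00296). PFKP made up 83.0% to 85.1% of phosphofructokinase FPKM in DU145 libraries, 59.7% to 63.8% in BPH-1 and 58.6% to 66.4% in PC3.

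Aldolase splits the sugar phosphate into triose phosphates. ALDOC, the brain form, lies on chromosome 17 from 28573115 to 28577264 (minus strand) and was at 1.55, 1.54, 1.63 and 2.91 FPKM in BPH-1, at 0.465, 0.326, 0.546 and 0.545 in DU145 and at 4.96, 4.37, 7.29 and 8.51 in PC3. There was no overlap among the lines. ALDOC rose in PC3 against BPH-1 (log2 fold change 1.31, standard error 0.22, adjusted p = 0.000538), fell in DU145 (-0.96, standard error 0.15, adjusted p = 0.000419) and was 13.3-fold higher in PC3 than in DU145 (2.27, adjusted p = 2.22e-05). The far more abundant ALDOA was at 41.4 ± 1.92, 59.9 ± 15 and 49.4 ± 13.6 FPKM in BPH-1, DU145 and PC3 (SD, n = 4). Its call as higher in DU145 (0.49, adjusted p = 0.0423) was lost without any of the 4 BPH-1 replicates or DU145 replicate 1 or 3 (adjusted p between 0.0688 and 0.125) and fell to 0.02 with the GC correction. ALDOC made up 9.78% to 12% of aldolase FPKM in PC3, 3.64% to 6.23% in BPH-1 and at most 1.14% in DU145.

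TPI1, triosephosphate isomerase, had the highest mean FPKM of upper glycolysis over all 12 libraries, although PFKP was higher in DU145. It was at 110, 101, 110 and 101 FPKM in BPH-1, at 119, 77.5, 125 and 75.9 in DU145 and at 80.3, 80.8, 115 and 143 in PC3. The lines overlapped and TPI1 was called in no comparison (log2 fold changes -0.05, -0.12 and 0.07). Its 4 pseudogenes held 19.2% to 23.6% of the reads of TPI1 and its pseudogenes together, so its own level is uncertain. With the GC correction, TPI1 was called in DU145 against BPH-1 (-0.65, adjusted p = 0.00167) and in PC3 against BPH-1 (-0.39, adjusted p = 0.0444). GPI, the isomerase of the second step (35.3, 46.6 and 38.5 mean FPKM in BPH-1, DU145 and PC3), was also called in no comparison, and its log2 fold changes were 0.10 in PC3, 0.37 in DU145 (adjusted p = 0.0951, 0.043 without DU145 replicate 2) and -0.26 in PC3 against DU145.

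The PFKFB enzymes differed between the lines in the share that each gene took. PFKFB4 (chromosome 3, 48517684 to 48562015, minus strand) was at 1.2, 1.33, 1.29 and 1.34 FPKM in BPH-1, at 0.847, 0.453, 0.830 and 0.777 in DU145 and at 6.11, 7.18, 12.1 and 14.2 in PC3. The libraries of each line kept apart from those of the others. PFKFB4 rose 7.66-fold in PC3 against BPH-1 (log2 fold change 2.18, standard error 0.23, adjusted p = 3.02e-05), fell in DU145 (-0.41, standard error 0.11, adjusted p = 0.00772) and was 13.6-fold higher in PC3 than in DU145 (2.59, standard error 0.26, adjusted p = 3.88e-05). The call in DU145 was lost in 1 fit over all 3 lines (adjusted p = 0.109) and with upper-quartile scaling (0.0924). PFKFB3, the form with the highest kinase activity, was at 4.06, 2.76, 1.74 and 1.84 FPKM in BPH-1, at 9.82, 7.52, 9.86 and 7.43 in DU145 and at 5.06, 4.85, 6.51 and 8.80 in PC3. Both PCa lines lay above BPH-1 in every library. Its log2 fold change was 1.46 in DU145 (standard error 0.22, adjusted p = 0.000305) and 1.03 in PC3 (standard error 0.23, adjusted p = 0.00328). Between PC3 and DU145 it was -0.42 (adjusted p = 0.108), and -0.57 (adjusted p = 0.0287) without PC3 replicate 4.

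PFKFB2 was at 3.86 to 5.0 FPKM in BPH-1, at 0.987, 3.25, 0.417 and 3.34 in DU145 and at 1.71 to 4.02 in PC3. DU145 replicates 1 and 3 were the low ones. The call as lower in DU145 (log2 fold change -0.98, adjusted p = 0.0306) was lost without any BPH-1 replicate or DU145 replicate 1 or 3 (adjusted p between 0.0522 and 0.0838). PFKFB2 shares 315 exon bases with YOD1 on the other strand, which had 788, 86 and 181 mean reads in BPH-1, DU145 and PC3. PFKFB2 itself had 727 to 926, 78 to 643 and 269 to 668 reads per library in these lines. Reads of YOD1 counted without strand could make up part of PFKFB2 and of its share in BPH-1, which was not tested. PFKFB1 had at most 9 reads in any library. As a share of PFKFB FPKM, PFKFB2 led in BPH-1 (45.0% to 55.8%), PFKFB3 in DU145 (63.9% to 88.8%) and PFKFB4 in PC3 (40.4% to 57.3%). Each of these shares lay above that of the same gene in every library of the other lines. With lengths of merged exons, PFKFB3 was slightly above PFKFB4 in PC3 (mean shares 43.64% and 41.7%). In BPH-1, PFKFB2 and PFKFB3 were then close (43.19% and 41.54%), so which gene leads in these lines depends on the length used.

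**Figure D3:**
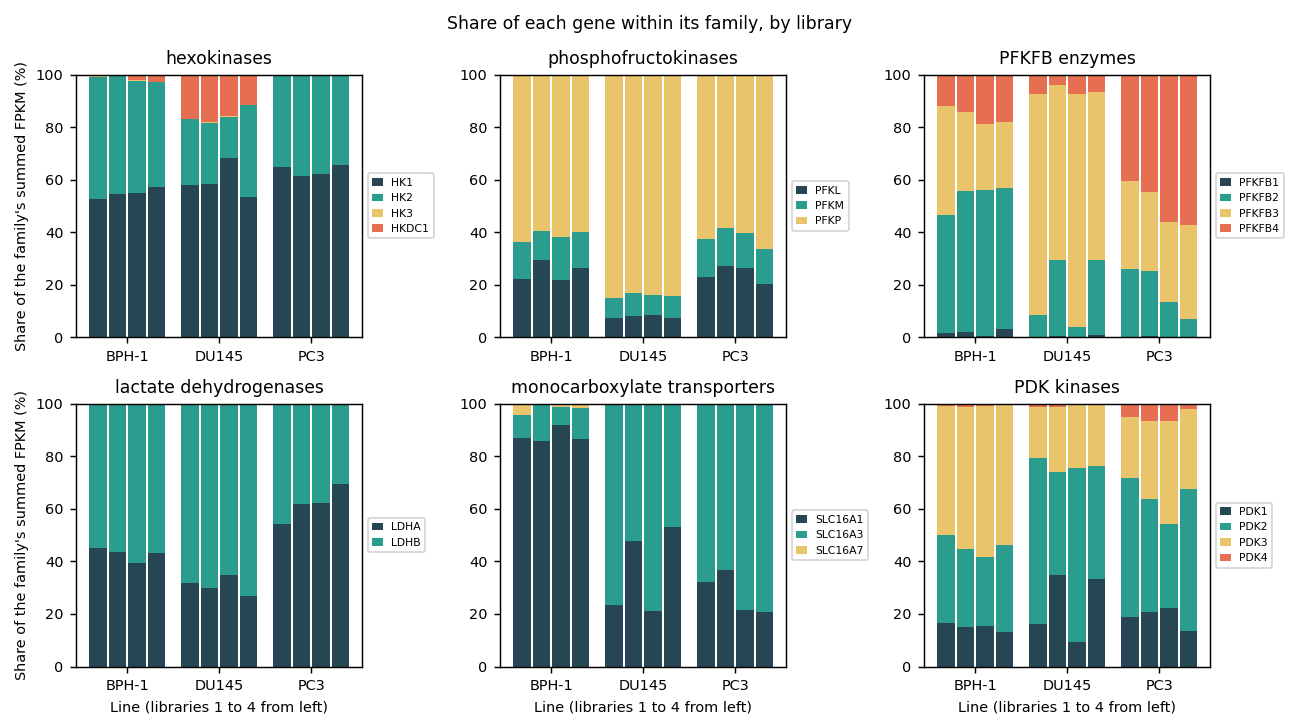
Bars are libraries (replicates 1 to 4 from left in each line) and colours are the genes of each family, as a percentage of the summed FPKM of the family (y axis). PFKFB3 takes 63.9% to 88.8% of its family in DU145 and PFKFB4 takes 40.4% to 57.3% in PC3, and SLC16A1 takes 86.0% to 91.8% of the monocarboxylate transporters in BPH-1.

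Lower glycolysis held the most abundant transcripts of the pathway. ENO1, enolase 1, was at 376, 305, 309 and 391 FPKM in BPH-1, at 569, 337, 650 and 356 in DU145 and at 499, 448, 554 and 698 in PC3. It rose in PC3 against BPH-1 (log2 fold change 0.66, standard error 0.15, adjusted p = 0.00395) with no overlap. In DU145, replicates 1 and 3 were above all BPH-1 libraries and replicates 2 and 4 were within their range (0.42, adjusted p = 0.137, and 0.57 with adjusted p = 0.0491 without replicate 2). GAPDH, often taken as a reference gene, was at 356 ± 73.6, 429 ± 94.0 and 386 ± 68.8 FPKM in BPH-1, DU145 and PC3 (SD, n = 4) and was called in no comparison.

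PGK1, which makes the first ATP of the pathway, was the lower glycolysis gene with the clearest difference. It lies on chromosome X from 78065188 to 78129296 (plus strand) and was at 67.4, 76.1, 67.7 and 66.7 FPKM in BPH-1, at 50.1, 39.8, 56.8 and 37.0 in DU145 and at 161, 165, 252 and 244 in PC3. The 3 lines did not overlap. PGK1 rose in PC3 against BPH-1 (log2 fold change 1.52, standard error 0.16, adjusted p = 3.3e-05) and against DU145 (2.13, standard error 0.21, adjusted p = 3.91e-05). It fell in DU145 against BPH-1 (-0.61, standard error 0.17, adjusted p = 0.00986), but with the GC correction this became 0.22 (adjusted p = 0.648), and with upper-quartile scaling it was -0.32 (adjusted p = 0.241).

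The neuronal enolase ENO2 was at 2.09, 3.44, 1.86 and 2.51 FPKM in BPH-1, at 2.72, 2.47, 3.91 and 2.19 in DU145 and at 4.61, 7.59, 7.51 and 6.81 in PC3. PC3 lay above both other lines, which overlapped. ENO2 rose in PC3 against BPH-1 (log2 fold change 1.13, standard error 0.19, adjusted p = 0.000469) and against DU145 (1.0, standard error 0.20, adjusted p = 0.00285). The muscle enolase ENO3 was at 0.481, 0.416, 0.367 and 0.416 FPKM in BPH-1, at 2.90, 1.78, 2.97 and 2.02 in DU145 and at 0.481, 0.580, 0.468 and 0.583 in PC3. It rose in DU145 against BPH-1 (1.25, standard error 0.14, adjusted p = 4.45e-05) and was lower in PC3 than in DU145 (-1.15, standard error 0.15, adjusted p = 0.000201). ENO3 overlaps 111 exon bases of PFN1 on the other strand, which had 7258, 11892 and 9171 mean reads against 43 to 355 reads for ENO3, so reads of PFN1 counted without strand could make up part of it, which was not tested. ENO1 was over 98% of enolase FPKM in every library.

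PGAM1, phosphoglycerate mutase, was at 72.1, 70.5 and 90.0 mean FPKM in BPH-1, DU145 and PC3 and was called in no comparison (log2 fold changes 0.30, -0.06 and 0.36, and 0.39 with adjusted p = 0.039 in PC3 against BPH-1 without PC3 replicate 2). With the GC correction, PGAM1 was called lower in DU145 than in BPH-1 (-0.49) and higher in PC3 than in DU145 (0.64). PKM, pyruvate kinase, was at 188, 153, 236 and 224 FPKM in BPH-1, at 121, 128, 164 and 84.6 in DU145 and at 139, 126, 135 and 214 in PC3. It fell in DU145 (-0.70, adjusted p = 0.0187), a call lost without BPH-1 replicate 3 (0.057) or 4 (0.0543). In PC3 against BPH-1 it was not called (-0.40, adjusted p = 0.0964), but it was without BPH-1 replicate 2 (adjusted p = 0.0416) or PC3 replicate 4 (0.0093) and with the GC correction (-0.59, adjusted p = 0.0150). Splice forms of PKM are not separated in values per gene.

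**Figure D4:**
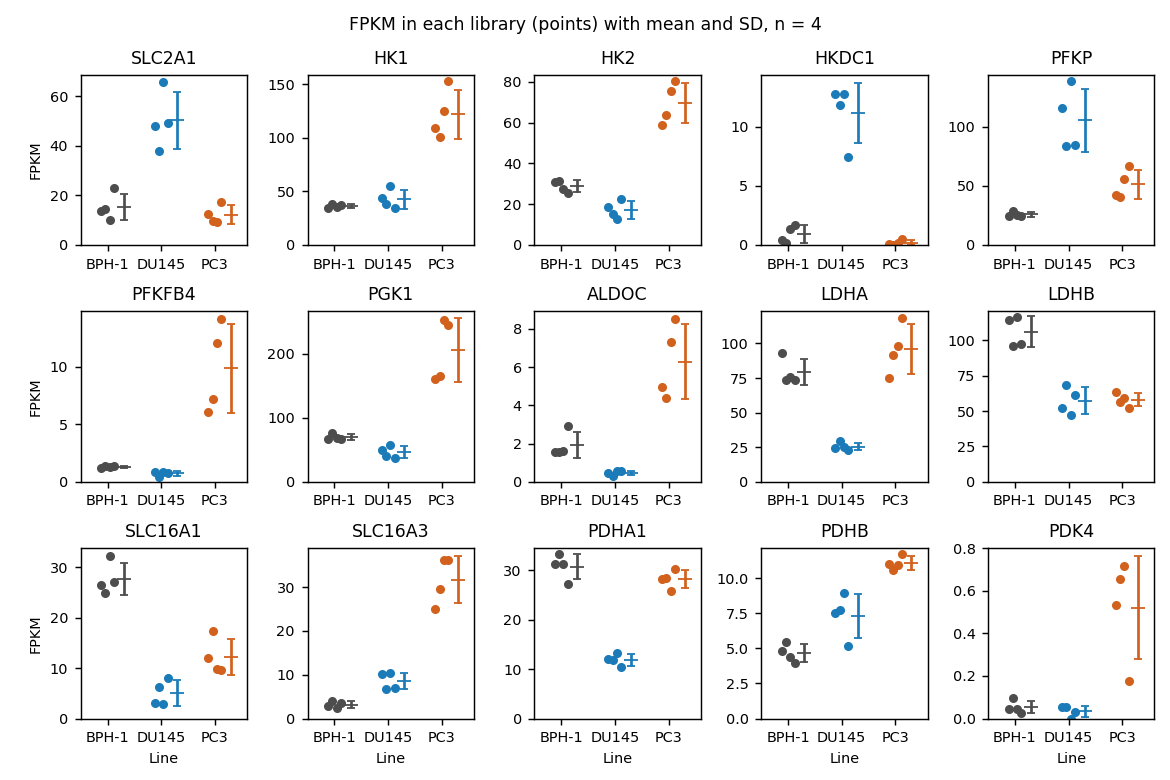
Points are the FPKM (y axis, from 0) of 15 genes in each library of BPH-1, DU145 and PC3, and bars are the mean and SD (n = 4). All PC3 libraries lie above all others for HK1, HK2, PFKFB4, PGK1, ALDOC, SLC16A3, PDHB and PDK4, and all DU145 libraries lie below all others for LDHA, SLC16A1 and PDHA1.

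SLC16A3 encodes MCT4, the low-affinity exporter of lactate found in highly glycolytic cells, and spans 82228397 to 82261129 of chromosome 17 (plus strand). It was at 2.78, 3.91, 2.46 and 3.65 FPKM in BPH-1, at 10.1, 6.85, 10.4 and 7.05 in DU145 and at 25.0, 29.6, 36.1 and 36.1 in PC3. No library of one line overlapped another line, with PC3 highest. SLC16A3 rose 9.91-fold in PC3 (log2 fold change 2.96, standard error 0.16, adjusted p = 5.09e-07) and 2.69-fold in DU145 (1.19, standard error 0.20, adjusted p = 0.00052) against BPH-1, and PC3 was 3.69-fold above DU145 (1.78, adjusted p = 6.06e-05). SLC16A3 shares 482 exon bases with CSNK1D on the other strand, which had 1883, 2807 and 2050 mean reads in BPH-1, DU145 and PC3. SLC16A3 itself had 666 to 1042, 1651 to 2846 and 5657 to 8752 reads per library in these lines. Reads of CSNK1D counted without strand could make up part of SLC16A3, above all in BPH-1 and DU145, which was not tested.

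SLC16A1 encodes MCT1, which carries lactate in either direction, and lies on chromosome 1 from 112911847 to 112957013 (minus strand). It was at 26.5, 24.8, 32.3 and 27.0 FPKM in BPH-1, at 3.05, 6.29, 2.81 and 8.02 in DU145 and at 12, 17.3, 9.84 and 9.52 in PC3. There was no overlap among the lines, with BPH-1 highest. SLC16A1 fell in DU145 (log2 fold change -2.34, standard error 0.28, adjusted p = 6.29e-05) and in PC3 (-1.15, standard error 0.18, adjusted p = 0.000348), and PC3 was above DU145 (1.18, standard error 0.31, adjusted p = 0.012). SLC16A1 was therefore 86.0% to 91.8% of monocarboxylate transporter FPKM in BPH-1, 21.3% to 53.2% in DU145 and 20.8% to 36.9% in PC3. SLC16A3 held 6.99% to 13.5% in BPH-1, 46.7% to 78.7% in DU145 and 63.0% to 79.1% in PC3. In DU145, replicates 2 and 4 had the higher SLC16A1 and the lower SLC16A3.

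SLC16A7 (MCT2), the high-affinity transporter, was low everywhere. It was at 1.25, 0.137, 0.444 and 0.540 FPKM in BPH-1, had 0 to 4 reads per library in DU145 and was at 0.0468 to 0.127 FPKM in PC3. It fell in DU145 (log2 fold change -0.61, adjusted p = 0.00877) and in PC3 (-0.53, adjusted p = 0.0193). Without BPH-1 replicate 1, the BPH-1 mean dropped from 0.594 to 0.374 FPKM and the log2 fold change in PC3 came to -0.35. The call in PC3 was lost with the GC correction (-0.10, adjusted p = 0.479) and without the filter on reads (adjusted p = 0.0538).

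LDHA, the form of lactate dehydrogenase that favours lactate, lies on chromosome 11 from 18394388 to 18408425 (plus strand). It was at 93.3, 73.6, 76.1 and 73.8 FPKM in BPH-1, at 24.4, 29.1, 25.3 and 22.7 in DU145 and at 74.7, 91.4, 98.5 and 118 in PC3. Every DU145 library was below every other library, and BPH-1 and PC3 overlapped. LDHA fell 3.12-fold in DU145 against BPH-1 (log2 fold change -1.60, standard error 0.15, adjusted p = 1.28e-05) and was 3.77-fold higher in PC3 than in DU145 (1.86, standard error 0.16, adjusted p = 1.88e-05). Between PC3 and BPH-1 the log2 difference was 0.26 (95% interval -0.08 to 0.59, adjusted p = 0.149, and 0.0398 without PC3 replicate 1), and with the GC correction it was 0.83 (adjusted p = 0.0153). The 6 pseudogenes of LDHA held 4.23% to 8.75% of the reads of LDHA and its pseudogenes together.

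LDHB, the form that favours pyruvate, is on chromosome 12 from 21635342 to 21757857 (minus strand). It was at 114, 95.8, 117 and 97.1 FPKM in BPH-1, at 51.9, 68.6, 47.5 and 61.5 in DU145 and at 63.3, 56.3, 59.3 and 52.5 in PC3. Both PCa lines lay below BPH-1 and overlapped each other. LDHB fell in DU145 (log2 fold change -0.88, standard error 0.16, adjusted p = 0.000961) and in PC3 (-0.86, standard error 0.11, adjusted p = 8.38e-05). LDHA was 54.2% to 69.3% of lactate dehydrogenase FPKM in PC3, 39.5% to 45.0% in BPH-1 and 27.0% to 34.7% in DU145. The 3 ranges did not overlap. Which gene leads within a line depends on the length used, because the authors' lengths count overlapping exons of different transcripts more than once. With merged exons the mean share of LDHB was 43.18% in BPH-1, 56.02% in DU145 and 25.97% in PC3, so that LDHA led in BPH-1, and the order of the lines was unchanged.

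In the pyruvate dehydrogenase complex, the catalytic subunit gene PDHA1 was low in DU145. PDHA1 (chromosome X, 19343893 to 19361705, plus strand) was at 31.4, 33.3, 31.2 and 27.1 FPKM in BPH-1, at 12.1, 11.8, 13.4 and 10.3 in DU145 and at 28.3, 28.4, 25.8 and 30.2 in PC3. BPH-1 and PC3 overlapped and DU145 lay below both. PDHA1 fell in DU145 against BPH-1 (log2 fold change -1.30, standard error 0.14, adjusted p = 3.89e-05) and was higher in PC3 than in DU145 (1.18, standard error 0.12, adjusted p = 6.04e-05), with -0.12 (95% interval -0.35 to 0.10) between PC3 and BPH-1. PDHA1 shares 956 exon bases with MAP3K15 on the other strand, which had 8.25 to 159 mean reads in a line against 1331 to 4873 reads of PDHA1 per library.

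Its partner subunit gene PDHB had another order. It was at 4.81, 5.45, 4.38 and 3.98 FPKM in BPH-1, at 7.5, 7.69, 8.91 and 5.17 in DU145 and at 11.0, 10.6, 10.9 and 11.7 in PC3. PC3 lay above both other lines. PDHB rose in PC3 against BPH-1 (log2 fold change 1.10, standard error 0.11, adjusted p = 2.35e-05) and against DU145 (0.55, standard error 0.16, adjusted p = 0.0198). The latter call was lost with the replicate number as a block (adjusted p = 0.0661), with the GC correction (0.49, adjusted p = 0.22) and with both (adjusted p = 0.263). The call as higher in DU145 than in BPH-1 (0.54, adjusted p = 0.0257) was lost without BPH-1 replicate 1, 3 or 4 or DU145 replicate 1 or 3 (adjusted p between 0.0519 and 0.076).

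The kinases that inactivate the complex rose in PC3, except PDK3. PDK3 was at 2.96, 4.82, 3.27 and 3.70 FPKM in BPH-1, at 0.841, 1.13, 1.17 and 1.2 in DU145 and at 2.40, 2.98, 4.25 and 2.89 in PC3. DU145 lay below both other lines, which overlapped. PDK3 fell in DU145 (log2 fold change -1.16, standard error 0.16, adjusted p = 0.000177) and was higher in PC3 than in DU145 (0.97, standard error 0.17, adjusted p = 0.0011). PDK4, the kinase induced by fasting, had 0 to 10 reads in BPH-1 and DU145 libraries and was at 0.536, 0.654, 0.719 and 0.179 FPKM in PC3. It rose in PC3 against BPH-1 (0.52, adjusted p = 0.00189) and against DU145 (0.54, adjusted p = 0.00284). PDK2 was at 2.11 ± 0.496, 2.46 ± 0.586 and 4.61 ± 0.885 FPKM in BPH-1, DU145 and PC3 (SD, n = 4) and rose in PC3 against BPH-1 (0.85, adjusted p = 0.00127) and DU145 (0.70, adjusted p = 0.012). It shares 2113 exon bases with SAMD14 on the other strand, which had at most 74.3 mean reads in a line. PDK1, a hypoxia-induced kinase, rose in PC3 against BPH-1 (1.03 to 1.93 mean FPKM, 0.52, adjusted p = 0.0091), although PC3 replicate 4 lay within the BPH-1 range, and with the GC correction it was also called higher in DU145 (0.77) than in BPH-1. PDK3 was 49.3% to 57.7% of PDK FPKM in BPH-1, above the 19.6% to 39.0% of the PCa libraries.

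Genes around the pathway were counted from 8 further lists. Beside their counts, 27.0% of all genes tested rose and 40.7% fell in PC3 against BPH-1, and 30.2% rose and 32.4% fell in DU145 against BPH-1, and the lists are small. Of the list for pyruvate entry and the rest of the pyruvate dehydrogenase complex, 8 of 9 genes were tested in each comparison, and 5 fell and 0 rose in PC3 against BPH-1, while 5 fell and 1 rose in DU145 against BPH-1. The mitochondrial pyruvate carrier subunit MPC1 was at 9.84 FPKM in BPH-1, 2.07 in DU145 and 5.49 in PC3. The complex subunit PDHX was at 9.30, 1.92 and 2.62, its subunit DLD at 12.9, 3.89 and 4.88, and the phosphatase PDP1, which switches the complex back on, at 6.92, 1.64 and 1.05. These 4 genes fell in both PCa lines (adjusted p at most 0.00475). The other carrier subunit, MPC2, was the gene that rose in DU145 (6.44 to 16.3 FPKM), and it was not called in PC3 against BPH-1 (8.34 FPKM in PC3).

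Among partners and relatives of the monocarboxylate transporters, 3 of 3 tested genes fell in PC3 against BPH-1 (all genes 40.7%), and 2 rose and 1 fell of 4 tested in DU145. EMB (embigin), a chaperone of these transporters, was at 10.0 FPKM in BPH-1, 1.59 in DU145 and 0.184 in PC3, and fell in both PCa lines (log2 fold changes -2.14 and -3.22). BSG (basigin), the chaperone of MCT1 and MCT4, fell in PC3 (66.0 to 33.3 FPKM, -0.97, adjusted p = 6.13e-05) and was not called in DU145 (58.1 FPKM, -0.22, adjusted p = 0.35). SLC16A5 rose in DU145 and fell in PC3 (0.755, 1.67 and 0.152 FPKM in BPH-1, DU145 and PC3), and SLC16A6 rose in DU145 (0.0398 to 0.456 FPKM). Of 10 tested glycogen genes, 3 rose and 3 fell in PC3 against BPH-1. PGM1 (7.47, 15 and 50.3 FPKM in BPH-1, DU145 and PC3) and the glycogen phosphorylase PYGB (31.7, 41.4 and 161) rose in PC3, and PGM2 (14.7, 8.11 and 3.79) fell. Of 7 tested pentose phosphate genes, 5 rose and 1 fell in PC3 and 2 rose and 1 fell in DU145, in each case against BPH-1. PGD of the oxidative branch rose in both (54.1, 114 and 97.2 FPKM in BPH-1, DU145 and PC3), RPE fell in both (6.83, 1.89 and 2.47), PGLS rose in PC3 (6.73, 7.51 and 16.4) and TALDO1 rose in DU145 (30.6, 59.5 and 29.8).

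Of the 8 tested other glycolytic isoforms, 2 rose and 6 fell in PC3 against BPH-1, and of 7 tested, 2 rose and 5 fell in DU145. All of these were called, beside 67.7% and 62.6% of all genes tested. TIGAR (4.63, 1.95 and 1.01 FPKM in BPH-1, DU145 and PC3), MINPP1 (7.29, 1.83 and 2.22) and BPGM (7.01, 2.69 and 4.05) fell in both PCa lines, and ADPGK rose in DU145 and fell in PC3 (3.59, 5.90 and 2.22). Of 5 tested gluconeogenic genes, 3 rose and 1 fell in PC3, among them FBP1 (0.128 FPKM in BPH-1, 0.239 in DU145 and 2.66 in PC3), which reverses the phosphofructokinase step. Of 4 tested in DU145, 3 rose and 0 fell, with PCK2, the mitochondrial PEP carboxykinase, at 2.48 FPKM in BPH-1 and 11.6 in DU145. G6PC3 (1.57, 5.74 and 3.25 FPKM in BPH-1, DU145 and PC3) and PC, pyruvate carboxylase (2.21, 4.47 and 3.57), rose in both PCa lines.

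Among regulators of the pathway, 3 rose and 6 fell of 13 tested in PC3 against BPH-1, and 4 rose and 3 fell of 14 tested in DU145. HIF1A, the oxygen-sensing subunit whose protein and not transcript is the usual point of control, was at 45.6 ± 2.70 FPKM in BPH-1, 7.11 ± 5.21 in DU145 and 11.8 ± 8.14 in PC3 (SD, n = 4) and fell in both PCa lines. The glucose-responsive genes TXNIP, which restrains glucose uptake, and ARRDC4 were at 37.1 and 6.83 FPKM in BPH-1, 1.99 and 0.0907 in DU145 and 13.7 and 0.474 in PC3, and fell in both. Of 14 hypoxia-responsive genes outside glycolysis, 7 rose and 5 fell in PC3 against BPH-1 and 4 rose and 3 fell in DU145. They did not share a direction, since CA9 fell in both PCa lines, VEGFA rose in DU145 (3.49 to 24.3 FPKM), and DDIT4 rose in DU145 (50.9 to 229 FPKM) and fell in PC3 (to 15.6).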

How the data were processed

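RNA of 3 established cell lines (BPH-1, DU145 and PC3, 4 libraries each) had been sequenced from libraries made with the NEBNext Ultra RNA kit. The submitters' processing notes list GRCh38, CASAVA 1.8, HISAT2 2.1.0 and edgeR, with no role named. The counting program, its annotation and its use of strand are not given in the sources used here. The deposited table held FPKM values that the authors had computed per gene; its header names no unit. FPKM was recognised because, with the sum of the lengths of all distinct exons of each gene (GENCODE 29), 91.9% to 93.4% of low values in a library were whole reads within 0.01, and reads were recovered from it. With merged exons 15.7% to 18.8% were whole. A length was found for all but 263 of the genes.

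The 40 genes, the further lists and the rules were chosen with earlier results of these data known. limma 3.58.1 in R 4.3.3 (lmFit, eBayes with trend) was fitted to log2(FPKM + 1) of the 8 libraries of the lines compared, over genes with at least 10 recovered reads in 4 libraries and 15 in all, with no covariate. P-values were adjusted over all genes tested (Benjamini-Hochberg, 0.05). On simulated data, 199, 199 and 200 of 200 changed genes were recovered with 17, 12 and 8 false calls, among 14748, 15342 and 14670 genes, for PC3 and then DU145 against BPH-1 and last for the PCa lines against each other. The simulation used a fixed dispersion, only large changes and no genes with few reads. It therefore does not show how well small changes or genes with few reads are called in the real libraries. Values of every library are given for the most abundant gene of each step and for genes called with an absolute log2 fold change of at least 1 and no overlap. Of each further list at most 4 genes are named, those with the largest absolute change among genes called. Genes outside these rules are named for completeness.

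Replicates of a line were not the same library deposited again (chi-square per gene 17.3 to 215 over 18 pairs). The lowest depth was 12950757 reads, and floors of 3 reads cover counting error only. Replicate numbers did not pair the libraries, since the correlation of same-numbered deviations ran from -0.66 to 0.51. Some differently numbered libraries of PC3 and DU145 did share deviations. The correlation was 0.70 for PC3 replicate 4 with DU145 replicate 3 and 0.55 for PC3 replicate 1 with DU145 replicate 2. With BPH-1 libraries the highest was 0.20, for PC3 replicate 3 with BPH-1 replicate 2. What these deviations share was not tested. Alternatives were the pseudocount (0.1), filters, scalings, the replicate number as a block, a GC correction, voom on recovered reads, 1 fit over all lines, leaving out each replicate and merged exons. Figures and tables of values used Python 3.11.15 with numpy 2.4.6, pandas 2.3.3 and matplotlib 3.10.9. Protein sequences and values for PKM splice forms were not analysed here. Some genes of the further lists and markers are not reported here.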

Additional observations from a re-analysis of the deposited data

Results flagged for a closer look

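Values that stood apart from the other 3 libraries of their line by Dixon's criterion were found in 6 of 119 groups of 4, where chance gives about 1 in 20. HK3 was at 0.0166 FPKM in PC3 replicate 4, which is 1 read, and at 0 in the others. ALDOC was at 2.91 FPKM in BPH-1 replicate 4 (others 1.54 to 1.63), PGK1 at 76.1 in BPH-1 replicate 2 (others 66.7 to 67.7) and LDHA at 93.3 in BPH-1 replicate 1 (others 73.6 to 76.1). PKM was at 214 FPKM in PC3 replicate 4 (others 126 to 139), and SLC16A7 was at 0.127 in PC3 replicate 3 (others 0.0468 to 0.0563).

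HK2, ALDOC, PFKFB4 and PGK1 were called in opposite directions in PC3 and DU145, each against the same BPH-1 libraries. PC3 against DU145 gave log2 fold changes of 1.97, 2.27, 2.59 and 2.13 (limma adjusted p = 3.71e-05, 2.22e-05, 3.88e-05 and 3.91e-05), and PC3 was higher in 4 of 4 libraries for each. These genes were picked for their opposite calls in the same libraries, so this comparison is a description and not a separate test. The side below BPH-1 in DU145 was the less certain one, since for HK2, PFKFB4 and PGK1 it was lost with upper-quartile scaling.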

How the results depend on the processing

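Of the single-gene values under the alternatives, 1934 kept their sign and side of the threshold, 73 changed sign without a call on either side, 56 gained a call, 66 lost one and 4 changed sign with a call on one side. Genes of the pathway called lower in PC3 against BPH-1 numbered 3 with the stricter filter, 8 with the GC correction, with or without the replicate block, and 9 with the same summed FPKM in every library. In DU145 against BPH-1, 8 fell with upper-quartile scaling, and in PC3 against DU145, 4 fell with the stricter filter. With an absolute log2 fold change over 1 also required, 10 rose and 2 fell in PC3, 7 rose and 5 fell in DU145, and 9 rose and 4 fell in PC3 against DU145. The 4 single-gene values that changed sign with a call on one side came from 2 genes. They were SLC2A6 in PC3 against BPH-1 (-0.39) and PGK1 in DU145 against BPH-1 (0.22), both with the GC correction, with and without the replicate block. The cause was not tested. With the replicate block, 18 rose and 7 fell in PC3, 12 and 13 in DU145, and 15 and 6 in PC3 against DU145, and the libraries share only a number. Leaving out 1 replicate gave 18 to 19 higher and 5 to 7 lower, 11 to 15 and 11 to 14, and 15 to 16 and 6 to 8, in that order.

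The median of all genes in PC3 against BPH-1 moved from -0.13 to -0.28 with the same summed FPKM and to 0.09 with upper-quartile scaling, and in DU145 from -0.03 to -0.16 and to 0.13. All genes called in PC3 against DU145 numbered 7870, and 5236 with the stricter filter. With an absolute log2 fold change over 1 they numbered 4426, 4896 and 3171 in the 3 comparisons. With merged exons the shares in BPH-1, DU145 and PC3 were 68.17%, 71.37% and 75.45% for HK1, 55.41%, 80.26% and 56.03% for PFKP, 97.32%, 99.51% and 92.90% for ALDOA, and 43.18%, 56.02% and 25.97% for LDHB. The share of SLC2A1 in DU145 was 83.56%, of PFKFB3 41.54% in BPH-1 and 43.64% in PC3, and of PDK2 38.23% in BPH-1. HK3 had at most 21 reads and PFKFB1 at most 9 in any library, and counting error limits their values.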
